A study of Mus musculus with 10 samples.

Results

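The methionine cycle genes around Ahcy were followed in laser-captured portal tracts of mouse liver, in which the bile duct, portal vein and hepatic artery run together in a sleeve of connective tissue. The members were 10 genes chosen by pathway around Ahcy, of which 9 had a probe set carrying only that gene's symbol, out of 22180 such genes on the array. These 9 genes had 10 probe sets, because Ahcy has 2, and the choice rested on measured values: Ahcy was selected on the disagreement of that pair between the groups, so their difference is given as a description without a test. Mat2a was not analysed here. RNA came from mice 1 week old, from 5 control samples and 5 Jag1+/-Rfng+/- samples, each made of 12 to 20 tracts, on 10 single-colour arrays. Controls are labelled strain C57Bl/6J, and the labels give no strain for the Jag1+/-Rfng+/- mice. Genetic background and genotype therefore cannot be told apart in any difference given here. The Jag1+/-Rfng+/- mice carry 1 altered copy each of Jag1, a ligand of the Notch receptors, and of Rfng, a fringe glycosyltransferase that modifies Notch. The labels name neither the kind of mutant allele nor the mouse behind each sample, and the p-values therefore rest on the spread among samples, which may be partly technical.

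In the methionine cycle, methionine is joined to ATP to give S-adenosylmethionine (SAM), the methyl donor of most cellular methylation. Each methyl transfer leaves S-adenosylhomocysteine, which inhibits methyltransferases and which adenosylhomocysteinase, the product of Ahcy, splits reversibly into homocysteine and adenosine. Homocysteine is then methylated back to methionine or enters transsulfuration towards cysteine, and hepatocytes carry out much of this traffic in the body.

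All values are the authors' log2 expression values, so a difference of 1 is a 2-fold change, and differences are Jag1+/-Rfng+/- minus control. Levels of different probe sets are not comparable with each other. Over the whole array, 2 of 23521 probe sets (0.00850%) had a limma adjusted p under 0.05, 1 higher and 1 lower in Jag1+/-Rfng+/- (0.00425% each). An unadjusted p under 0.05 was found for 1581 (6.72%), and for 323 (1.37%) the groups did not overlap. The targeted genes read lower in Jag1+/-Rfng+/-, Rfng by -0.46 ± 0.12 (SE) and Jag1 by -1.33 ± 0.42. Neither passed the threshold (limma adjusted p = 0.436 and 0.582), and the Jag1 groups overlapped. The array least like the rest was Jag1+/-Rfng+/- replicate 5 (correlations 0.956 to 0.963, against 0.969 or more between any 2 others), whose sample name carries the unexplained suffix excl. As a guide to dim signal, 95% of the values of 1091 olfactory receptor probe sets lay below 3.19, and every value of every member lay above it. Hepatocyte markers (21 of 24 measured) were all above that level on average, as were 8 of 9 measured biliary and 11 of 11 measured portal fibroblast markers. Relative to the control mean, the average of the hepatocyte list ran from -0.15 to 0.14 in controls and from -0.12 to 0.06 in Jag1+/-Rfng+/-. The biliary list ran from -0.27 to 0.37 in controls and from -0.64 to -0.06 in Jag1+/-Rfng+/-. Its markers did not move together: 2 were higher and 7 lower, with differences from -0.93 to 0.8. The portal fibroblast list ran from -0.67 to 0.33 and from -1.22 to 0. The endothelial list ran from -0.17 to 0.15 and from 0.03 to 0.40, and the macrophage list from -0.23 to 0.23 and from -0.35 to 0.75. The erythroid list ran from -0.71 to 0.60 in controls and from -0.28 to 0.28 in the Jag1+/-Rfng+/- arrays other than replicate 5, which stood at 2.72. In such bulk samples fewer cells of a type and less RNA per cell cannot be told apart.

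The 2 Ahcy probe sets differed between the groups in opposite directions, which is what Ahcy was selected on. For both of them the groups did not overlap. The share of all probe sets without overlap (1.37% of all, 0.612% higher and 0.761% lower) is given as background, and with this selection nothing is read from it. On probe set 17330769, controls 1 to 5 read 5.58, 5.24, 5.41, 5.22 and 5.36, and Jag1+/-Rfng+/- replicates 1 to 5 read 6.32, 7.15, 7.36, 6.36 and 6.98. The controls were tightly grouped, and the lowest Jag1+/-Rfng+/- array stood 0.74 above the highest control. The means were 5.36 ± 0.15 and 6.83 ± 0.47 (SD, n = 5 each), a difference of 1.47 ± 0.20 (SE), or 2.77-fold higher.

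On probe set 17393207, controls 1 to 5 read 4.95, 4.44, 4.46, 5.98 and 5.28, and Jag1+/-Rfng+/- replicates 1 to 5 read 4.12, 4.33, 4.37, 4.16 and 4.15. Here it was the controls that spread, with control 4 highest, while the Jag1+/-Rfng+/- arrays lay close together and only 0.07 below the lowest control. The means were 5.02 ± 0.64 and 4.23 ± 0.11 (SD, n = 5 each), a difference of -0.80 ± 0.25 (SE), or 1.74-fold lower. Without control 4 it was -0.56 ± 0.17 (SE). Controls 4 and 2, highest and lowest on this probe set, also had the highest and lowest hepatocyte list averages among controls, 0.14 and -0.15. On the portal fibroblast list control 4 had the lowest average among controls, -0.67, and controls 2 and 3 the highest, 0.33 each. With the hepatocyte average as a covariate the difference was -0.64 ± 0.15 (SE). With the portal fibroblast average as a covariate it was -1.19 ± 0.28 (SE). That average itself differed between the groups by -0.68, and the hepatocyte average by -0.04. For probe set 17330769 the difference was 1.52 ± 0.20 (SE) with the hepatocyte covariate and 1.45 ± 0.27 (SE) with the portal fibroblast covariate.

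**Figure D1:**
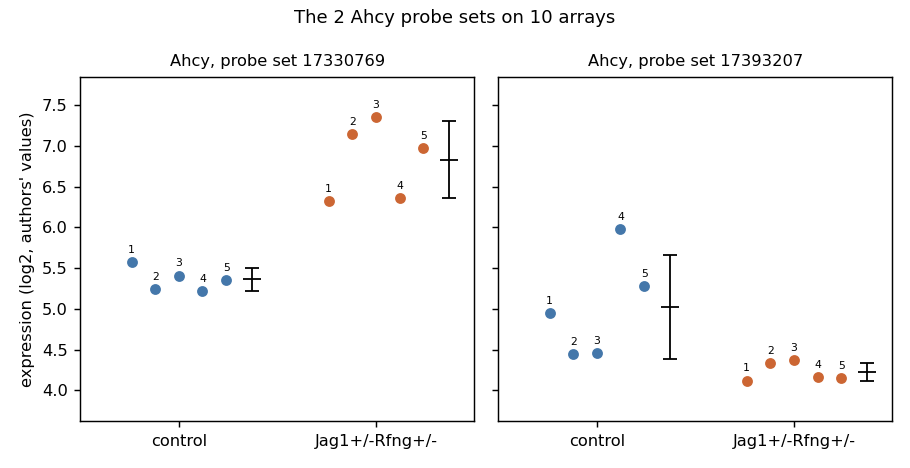
Log2 expression of the 2 Ahcy probe sets, 1 point per array numbered by replicate, with the mean and SD beside each group of 5. On probe set 17330769 the Jag1+/-Rfng+/- arrays lie at 6.32 to 7.36, above controls at 5.22 to 5.58, and on 17393207 they lie at 4.12 to 4.37, below controls at 4.44 to 5.98.

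Among the 7 arrays that share the 1 number found in the sample names of both groups, a possible batch of unstated meaning, the first probe set differed by 1.67 and the second by -0.71 (3 control and 4 Jag1+/-Rfng+/- arrays).

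The identifiers of the 2 probe sets fall at different places in the genome order. Probe set identifiers on this array mostly follow the order of genes along chromosomes: of 23326 probe sets matched to RefSeq and with a neighbour on either side, 97.6% sat between 2 neighbours of their own chromosome, and 136 (0.583%) sat between 2 neighbours that share another chromosome. Probe set 17393207 sat between Eif2s2 and 2310005A03Rik on chromosome 2, the interval that holds Ahcy itself. Probe set 17330769 was one of the 136: its neighbours were Cd96 and Nectin3, both on chromosome 16. The other 8 measured members each sat between neighbours of their own chromosome.

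Between Cd96 and Nectin3 the GRCm38.p6 gene order holds 3 genes, a pseudogene, a small nucleolar RNA and the protein-coding gene Gm4737, and RefSeq lists the synonym AL024110 for both Gm4737 and Ahcy. Gm4737 spans 2093 bases and Ahcy 15188. No probe set carries the symbol Gm4737 in the annotation used. Probe sequences were not used here, so whether probe set 17330769 detects transcripts of Ahcy, of Gm4737 or of both was not tested, and its gene name is uncertain.

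The 250 bases upstream of the RefSeq start of each gene are shown because the identifiers of the 2 probe sets fall at these different loci. They are printed 5′ to 3′ from the minus strand of GRCm38.p6, at chr2:155074498-155074747 for Ahcy and chr16:46155078-46155327 for Gm4737, with each CG dinucleotide in capitals.
Ahcy: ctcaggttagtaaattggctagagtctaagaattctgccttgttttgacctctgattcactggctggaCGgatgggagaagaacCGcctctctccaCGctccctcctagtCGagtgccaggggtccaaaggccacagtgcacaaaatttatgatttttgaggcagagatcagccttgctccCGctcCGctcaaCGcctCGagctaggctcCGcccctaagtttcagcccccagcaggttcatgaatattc
Gm4737: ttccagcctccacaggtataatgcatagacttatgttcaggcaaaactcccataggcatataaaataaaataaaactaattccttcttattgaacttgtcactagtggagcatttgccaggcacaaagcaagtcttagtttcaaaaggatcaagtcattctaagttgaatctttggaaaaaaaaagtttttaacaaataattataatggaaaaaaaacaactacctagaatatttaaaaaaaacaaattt
The Ahcy window holds 9 CG dinucleotides and the Gm4737 window 0, where 92.1% of 32851 RefSeq promoter windows of that length hold at least 1 and their median is 6 (a CG reads the same on both strands). G and C make up 52.8% of the Ahcy window and 29.6% of the Gm4737 window. The best local alignment of the pair covered 28 positions, of which 22 were identical.

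Flanking probe sets at both places were looked at next. Of the 20 probe sets flanking 17393207, 10 on either side, 10 were higher and 10 lower in Jag1+/-Rfng+/-, with differences from -0.22 to 0.26 and 0 at an unadjusted limma p under 0.05. Of the 20 flanking 17330769, 7 were higher and 13 lower, from -0.87 (Cd200) to 0.42 (Gm4802), and 2 had an unadjusted p under 0.05. Groups did not overlap for 0 of the 40 flanking probe sets. Over all probe sets the share without overlap was 1.37%, and 6.72% had an unadjusted limma p under 0.05. At such shares few or none of 40 probe sets are reached, so nothing is read from these counts. Ahcy and Jag1 lie on the same chromosome with 178 of its 1864 measured genes between them. Whether this placement bears on either Ahcy difference was not tested.

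**Figure D2:**
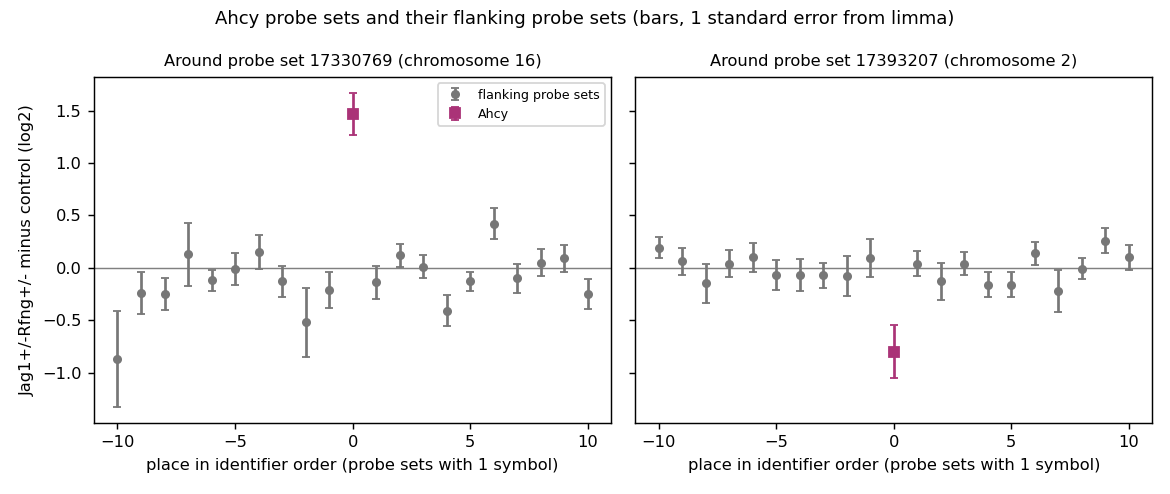
Difference between the groups (log2, with 1 standard error from limma) for the 2 Ahcy probe sets, drawn as squares, and the 10 probe sets on either side of each in identifier order. The squares stand at 1.47 and -0.80, and the flanking probe sets lie between -0.87 and 0.42 on the left and between -0.22 and 0.26 on the right.

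The 8 other measured members differed in both directions, and none passed the test. Of them 6 read higher and 2 lower in Jag1+/-Rfng+/-, 0 passed a limma adjusted p of 0.05 (adjusted p = 0.586 to 0.993 over all 23521 probe sets), and 3 had an unadjusted p under 0.05, Ahcyl2 and Bhmt higher and Cbs lower. Their median difference was 0.05, beside -0.01 over all probe sets. Over all probe sets, 2.95% had an unadjusted p under 0.05 and were higher, and 3.78% had one and were lower.

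Ahcyl1 and Ahcyl2 encode relatives of adenosylhomocysteinase that are known for regulatory roles, Ahcyl1 as IRBIT, a protein that binds the inositol trisphosphate receptor. For Ahcyl2 (probe set 17456736, chromosome 6), controls 1 to 5 read 4.23, 4.29, 4.24, 4.12 and 4.34, and Jag1+/-Rfng+/- replicates 1 to 5 read 4.50, 4.56, 4.53, 4.38 and 4.80. It was the 1 member besides Ahcy whose groups did not overlap (1.37% of all probe sets), with a gap of 0.04. The difference was 0.31 ± 0.10 (SE), 1.24-fold, with limma adjusted p = 0.586, and it ranged from 0.25 to 0.35 when any single array was left out.

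For Ahcyl1 (probe set 17409053, chromosome 3), controls 1 to 5 read 7.15, 7.49, 7.54, 7.51 and 7.79, and Jag1+/-Rfng+/- replicates 1 to 5 read 7.39, 7.90, 7.27, 7.33 and 7.19. The groups overlapped over most of their range, and Jag1+/-Rfng+/- replicate 2 was the highest array of all. The difference was -0.08 ± 0.15 (SE), with a 95% confidence interval of -0.41 to 0.25 (limma adjusted p = 0.946).

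Mat1a encodes the catalytic subunit of the SAM-making enzyme of mature hepatocytes. On its probe set (17298956, chromosome 14) controls 1 to 5 read 10.85, 10.71, 10.73, 10.93 and 10.83, and Jag1+/-Rfng+/- replicates 1 to 5 read 10.61, 10.71, 10.96, 10.75 and 11.06. These were among the steadiest values of the set, with an SD of 0.09 in controls and 0.18 in Jag1+/-Rfng+/-. The difference was 0.01 ± 0.11 (SE), with a 95% confidence interval of -0.22 to 0.24 (limma adjusted p = 0.993).

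Gnmt and Pemt encode 2 of the liver's main consumers of SAM, glycine N-methyltransferase, which buffers SAM levels, and phosphatidylethanolamine N-methyltransferase, which makes phosphatidylcholine. Gnmt (probe set 17345562, chromosome 17) read 9.18, 8.07, 8.57, 8.99 and 8.46 in controls 1 to 5, and 8.07, 8.82, 8.96, 8.33 and 9.51 in Jag1+/-Rfng+/- replicates 1 to 5. Both groups spanned more than 1 log2 unit, and the lowest array of each read 8.07. The difference was 0.08 ± 0.27 (SE), with a 95% confidence interval of -0.51 to 0.68 (limma adjusted p = 0.971), and without replicate 5, the highest array and the one with the high erythroid average, it was -0.11. Among the 7 arrays that share a sample-name number it was 0.36.

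Pemt (probe set 17263516, chromosome 11) read 9.13, 9.03, 9.19, 9.63 and 9.46 in controls 1 to 5, and 9.30, 9.29, 9.51, 9.44 and 8.99 in Jag1+/-Rfng+/- replicates 1 to 5. All but 1 of the Jag1+/-Rfng+/- values fell inside the control range. The difference was 0.02 ± 0.14 (SE), with a 95% confidence interval of -0.28 to 0.32 (limma adjusted p = 0.988).

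Bhmt and Mtr encode 2 of the enzymes that methylate homocysteine back to methionine, the first with betaine and the second with methylfolate. Bhmt2, listed here with the other remethylation genes and not as a member, differed by -0.13 (limma adjusted p = 0.879). Bhmt (probe set 17295005, chromosome 13) read 3.39, 3.62, 3.81, 3.88 and 4.03 in controls 1 to 5, and 3.73, 4.28, 4.21, 4.35 and 4.23 in Jag1+/-Rfng+/- replicates 1 to 5. All Jag1+/-Rfng+/- arrays except replicate 1 lay above the highest control. The values are near the dim level: the lowest control, 3.39, stood little above 3.19, below which 95% of olfactory receptor values lay. The difference was 0.42 ± 0.15 (SE), 1.33-fold (limma adjusted p = 0.634), and 0.33 to 0.52 when any single array was left out.

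Mtr (probe set 17290565, chromosome 13) read 4.51, 4.69, 4.39, 4.26 and 4.37 in controls 1 to 5, and 4.35, 5.18, 4.49, 4.83 and 4.29 in Jag1+/-Rfng+/- replicates 1 to 5. Only replicates 2 and 4 exceeded the controls. The difference was 0.19 ± 0.17 (SE; limma adjusted p = 0.865), 0.05 without Jag1+/-Rfng+/- replicate 2, and 0.51 with the portal fibroblast average as a covariate (adjusted p = 0.595).

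Cbs encodes cystathionine beta-synthase, which commits homocysteine to transsulfuration. On its probe set (17343227, chromosome 17) controls 1 to 5 read 8.09, 7.75, 7.88, 7.83 and 7.52, and Jag1+/-Rfng+/- replicates 1 to 5 read 6.94, 7.75, 7.63, 7.31 and 7.36. Replicates 1, 4 and 5 lay below every control, and replicates 2 and 3 lay within the control range. The difference was -0.42 ± 0.16 (SE), 1.34-fold lower (limma adjusted p = 0.647), and -0.31 among the 7 arrays that share a sample-name number.

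**Figure D3:**
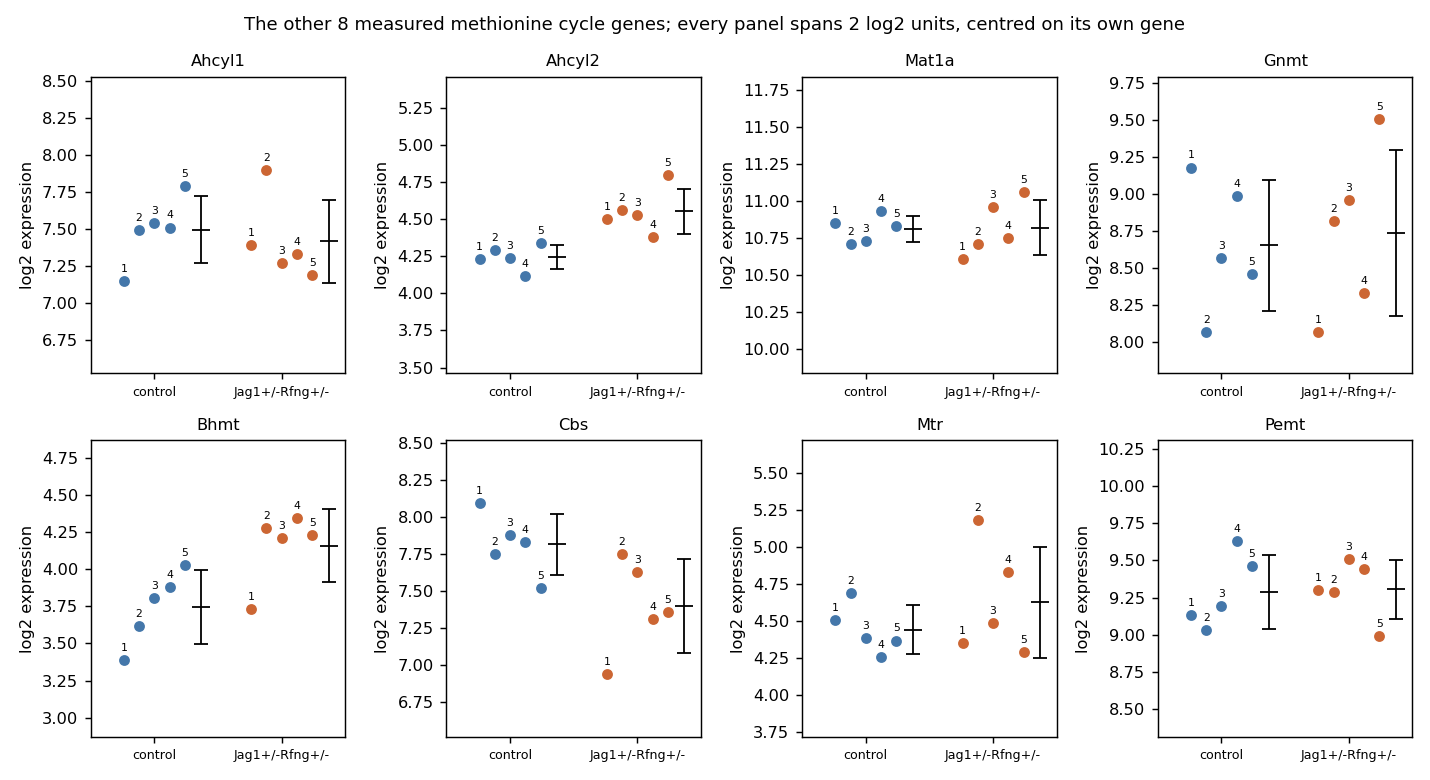
Log2 expression of the other 8 measured members, 1 point per array numbered by replicate, with the mean and SD beside each group of 5; each panel spans 2 log2 units around its own gene. Only the Ahcyl2 groups do not overlap (4.12 to 4.34 and 4.38 to 4.80).

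**Figure D4:**
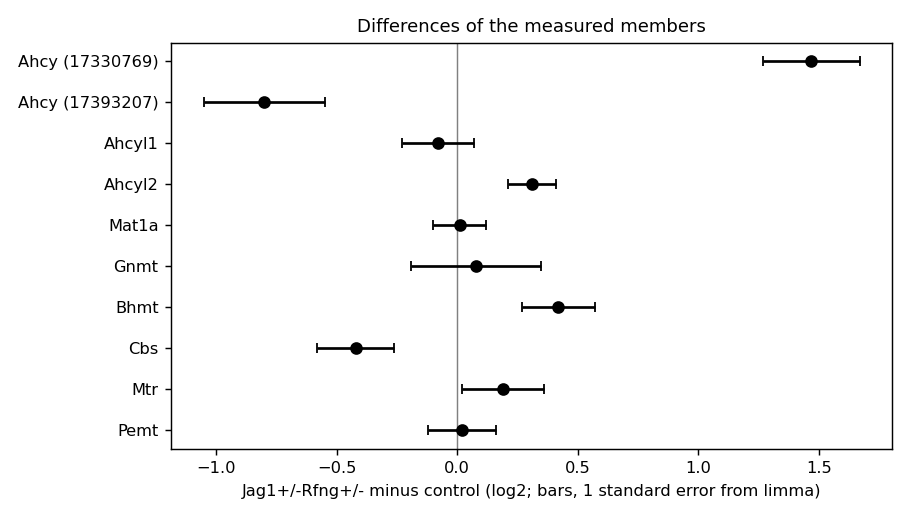
Difference between the groups (log2, Jag1+/-Rfng+/- minus control, with 1 standard error from limma) for the 10 member probe sets. The 2 Ahcy probe sets stand at 1.47 and -0.80, and the other 8 between -0.42 (Cbs) and 0.42 (Bhmt).

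The members before Ahcy in the cycle, Mat1a and the SAM users Gnmt and Pemt, lay at 0.01 to 0.08. Those after it lay at 0.42 for Bhmt, 0.19 for Mtr and -0.42 for Cbs. The differences of these members have both signs, and 0 passed the threshold in either Ahcy direction.

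Genes outside the cycle whose values ran most like each Ahcy probe set were found by the root mean square difference of centred log2 values over the 10 arrays, a measure that includes the difference between the groups, so that the 5 genes of each set differ in the direction of their probe set. For 17330769 they were Ackr2, an atypical chemokine receptor gene (0.48), Ifi27l2b and Mrgprb2 (0.49 each), and Mterf1a and the zinc finger transcription factor gene Zbtb16 (0.52 each). For 17393207 they were Hadhb, a subunit of the mitochondrial trifunctional protein of fatty acid oxidation, and Keg1 (0.25 each). The others were the cytochrome P450 gene Cyp2b10 (0.26), and the glucuronosyltransferase gene Ugt2a3 and Klhl28 (0.27 each). The genes of 17330769 differed between the groups by 0.53 to 1.0, beside 1.47 for that probe set. Those of 17393207 differed by -0.88 to -0.47, beside -0.80. Root mean square differences are therefore not compared between the 2 probe sets.

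Around the members, 74 measured genes of 81 in 6 lists of the cycle's wider pathways (79 probe sets) were read in the same fit. Of these probe sets 25 were higher and 54 lower in Jag1+/-Rfng+/-, with a median difference of -0.05 beside -0.01 over all probe sets. In the limma fit 0 passed the adjusted threshold, 4 had an unadjusted p under 0.05, all lower (the 3.78% above is the share over the array), and 1 had groups that did not overlap (0.761% of all probe sets were lower in this way). The medians of the lists ran from -0.12 to 0.01 over all 10 arrays and from -0.03 to 0.08 among the 7 arrays that share a sample-name number, where 3 of 6 were above 0.

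In the folate cycle, which carries one-carbon units, 4 probe sets were higher and 17 lower, and 1 had an unadjusted p under 0.05. That was Gldc, glycine decarboxylase of the mitochondrial glycine cleavage system, which read 7.06 to 7.85 (median 7.30) in controls and 5.96 to 7.05 (median 6.98) in Jag1+/-Rfng+/-. The groups did not overlap, by a margin set by control 2 and replicate 5, and the difference was -0.65 ± 0.22 (SE; limma adjusted p = 0.630). Tyms, thymidylate synthase, differed by -0.37 and Shmt1, a serine hydroxymethyltransferase, by -0.30 (limma adjusted p = 0.745 and 0.747).

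Among SAM-dependent methyltransferases 7 were higher and 12 lower. Dnmt3b, a de novo DNA methyltransferase, read 4.71 to 5.13 (median 4.87) in controls and 3.27 to 4.81 (median 4.21) in Jag1+/-Rfng+/-, with replicate 1 lowest. Its difference was -0.73 ± 0.23 (SE; limma adjusted p = 0.586), while Mettl14, of the RNA m6A methyltransferase, and Tpmt, thiopurine methyltransferase, each differed by -0.22 (adjusted p = 0.781 and 0.803).

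Transsulfuration, cysteine and glutathione genes numbered 4 higher and 6 lower. Gclc, the catalytic subunit of the first enzyme of glutathione synthesis, read 8.52 to 8.96 in controls and 7.89 to 8.78 in Jag1+/-Rfng+/- and differed by -0.49 ± 0.18 (SE; limma adjusted p = 0.636). Suox, sulfite oxidase, differed by -0.54 and Csad, of taurine synthesis, by 0.36 (adjusted p = 0.790 and 0.795).

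The list of polyamine synthesis and methionine salvage, of which only the salvage part recovers methionine from used SAM, had 2 higher and 7 lower. Adi1, of the salvage pathway, differed by -0.34 ± 0.14 (SE; limma adjusted p = 0.704), and Srm, spermidine synthase, and Apip by -0.24 each (adjusted p = 0.821 and 0.838).

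The other genes of SAM synthesis and remethylation had 3 probe sets higher and 8 lower, none of them with an unadjusted p under 0.05, among them the choline oxidation gene Chdh at 0.19, Sardh at -0.22 on probe set 17383254 (0.07 on its other, 17368515) and the cobalamin gene Mmachc at -0.18 (limma adjusted p = 0.773, 0.808 and 0.843). Genes that handle adenosine, the other product of adenosylhomocysteinase, or its precursor AMP had 5 probe sets higher and 4 lower and 0 with an unadjusted p under 0.05. The adenosine transporter gene Slc28a2 differed by 0.20, Ampd2, which deaminates AMP, by -0.13 on 1 of its 2 probe sets and by -0.06 on the other, and the ectonucleotidase gene Nt5e, which makes adenosine from AMP, by 0.20 (limma adjusted p = 0.865, 0.871 and 0.901).

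**Figure D5:**
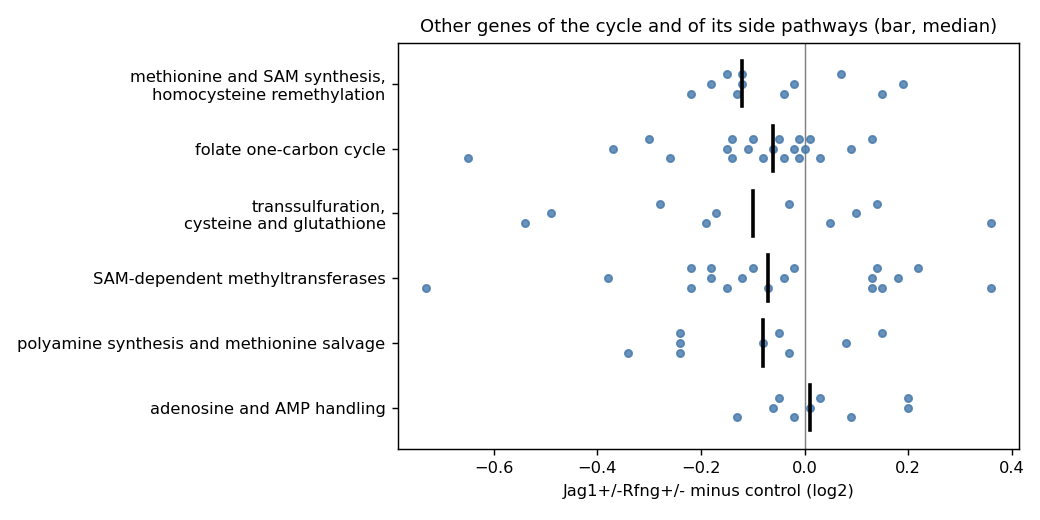
Difference between the groups (log2, Jag1+/-Rfng+/- minus control) for each probe set of the 6 pathway lists, with a bar at each median. The medians lie between -0.12 and 0.01, and the most distant point is Dnmt3b at -0.73.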

How the data were processed

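The values are log2 expression values per probe set, deposited by the authors for 10 arrays and 33649 probe sets. RMA and Partek 6.6 are named for them, without a role, per the submitters' processing notes. RMA compresses the folds of dim genes. Build and probe sequences are not given in the sources used here. Symbols came from the platform annotation, and 23521 probe sets with a single symbol were used, 23328 of which matched RefSeq (GRCm38.p6) by Entrez identifier. Each probe set was kept separate. The test was limma's moderated linear model (version 3.58.1, under R 4.3.3; lmFit, then eBayes; two-sided, without covariates), with Benjamini-Hochberg adjustment over all 23521 and a threshold of 0.05, after testing on simulated data. The number of arrays limits precision. The table held 0 columns of no sample, and 0 pairs of arrays were identical.

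The members and gene lists were chosen with earlier results of these data known. The genes named are all member probe sets, the 3 genes of lowest unadjusted p in each of 6 pathway lists and the 5 genes closest to each Ahcy probe set, leaving out predicted genes, clones, small RNAs and olfactory and vomeronasal receptors. Cd200, Gm4802 and Bhmt2, and the neighbours in identifier order, were named after their values were seen. Promoter sequences are RefSeq's for GRCm38.p6. Alternatives were each array left out, a replicate block, only the 7 arrays sharing a sample-name number, other normalizations, a filter on dim probe sets, array weights, other eBayes settings, marker lists as covariates and other sets of probe sets.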

Additional observations from a re-analysis of the deposited data

Results flagged for a closer look

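For 2 of 20 groups tested (10 member probe sets in either genotype) 1 array lay far from the other 4 by Dixon's criterion for 5 values, which chance gives in about 1 group in 20. Jag1+/-Rfng+/- replicate 2 read 7.90 for Ahcyl1, above the other 4 arrays at 7.19 to 7.39. Jag1+/-Rfng+/- replicate 1 read 3.73 for Bhmt, below the other 4 at 4.21 to 4.35. Without them the differences were -0.20 for Ahcyl1 and 0.52 for Bhmt.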

How the results depend on the processing

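Over 22 alternatives Ahcy probe set 17330769 differed by 1.34 to 1.67, and over the 21 that hold it probe set 17393207 differed by -1.19 to -0.56. Ahcyl2, Bhmt, Cbs and Mtr kept their sign in 22 of 22. Some of these alternatives leave every difference as it is by construction and alter only its error or the adjustment. They are the replicate block, the filter on dim probe sets, trend and robust eBayes, and the other sets of probe sets. A sign kept under them carries no information. Members near 0 changed sign. With the portal fibroblast covariate Ahcyl1 became 0.01, Mat1a -0.10, Gnmt -0.26 and Pemt -0.03, and with quantile normalization Mat1a and Pemt became -0.01 each. Leaving out single arrays gave -0.05 to 0.06 for Mat1a, -0.11 to 0.25 for Gnmt and -0.05 to 0.10 for Pemt, or up to 0.13 for Pemt with the shared sample-name arrays without replicate 5, an alternative chosen after seeing the data. The causes were not tested. Of the 8 members other than Ahcy, and of the pathway probe sets, 0 passed under any alternative. Over the array the count of 2 became 1 with the shared sample-name number, 4 above the median level, 6 with array weights, 9 with trend and robust eBayes and 1 with the portal fibroblast covariate, and 2 to 5 with 1 array left out (5 without control replicate 4, 4 without control replicate 5 or Jag1+/-Rfng+/- replicate 2). It was 0 with the shared sample-name arrays without replicate 5, where 1264 had an unadjusted p under 0.05 in limma. Same-numbered replicates did not deviate together (correlations of deviations -0.241 to 0.057), so the numbers were not taken as pairs, and with the replicate number as a block the count was 2 and no member's call changed.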
